A study of Mus musculus with 8 samples.

Results

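The integrated stress response is the program by which cells lower general protein synthesis and switch on a set of stress genes, and its central transcription factor is ATF4. The 10 genes described here are *Atf4* itself and 9 genes known as its targets or partners: *Atf5*, *Ddit3*, *Trib3*, *Asns*, *Phgdh*, *Mthfd2*, *Fgf21*, *Gdf15* and *Sesn2*. They were chosen by name from the GRCm38 annotation, out of 31053 genes in the count table, with earlier results of these data known. In that table they had 11 rows because *Ddit3* is annotated under 2 gene identifiers. The second *Ddit3* row held no count in any mouse, so 1 row per gene was used. Of the 10 genes, 9 passed the filter on low counts and *Fgf21* did not.

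RNA-seq was performed on vWAT (visceral white adipose tissue) from male mice 8 months old, with 1 library for each of 4 WT and 4 KIKO animals. KIKO, for knock-in knock-out, is the submitters' name for mice in which 1 allele of a gene is knocked out and the other carries a knock-in. WT mice were littermates, both genotypes carry the strain label C57BL/6, and none of the 8 mice is labelled with a treatment. The library titles abbreviate the depot as EWAT.

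In the response, kinases that sense unfolded proteins, lack of amino acids, heme deficiency, viral RNA or, through the protease OMA1 and DELE1, mitochondrial damage phosphorylate the translation factor eIF2. Most translation then slows while the *Atf4* mRNA is translated more, so much of the control lies above the level of mRNA, and the mRNAs of ATF4 targets are the usual readout in tissue. Mitochondrial disease of muscle and heart is known to raise such targets, among them the secreted hormones FGF21 and GDF15. The comparison of the genotypes asks whether these mRNAs differ in visceral fat of KIKO mice.

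Total counts ranged from 2602189 to 3478539 per library. Levels are given as CPM, read counts scaled to a fixed library total after TMM normalisation, which corrects for differences in library composition. Adipocyte markers were present in every mouse, with a summed level of 18860 to 22970 CPM in WT against 21200 to 25450 CPM in KIKO mice over 8 genes, and 5 of 6 markers of the epididymal epithelium (*Crisp1*, *Lcn5*, *Lcn8*, *Rnase9* and *Defb20*) had no count in any mouse. The remaining marker, *Adam7*, had 4 counts, all in WT mouse 2 (1.21 CPM). The genotypes of the libraries were taken from the labels. The counts come from whole tissue, in which fewer cells of a type and less RNA per cell cannot be told apart.

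ATF4 binds DNA as a dimer with C/EBP proteins at a composite element with the core letters TGATGNAA. A search on both strands of the RefSeq promoter table for GRCm38.p6, from 250 bases before to 50 bases after each start site, matched all 10 genes (12 windows, since *Atf5* and *Gdf15* have 2 start sites each). *Trib3*, *Asns* and *Fgf21* held the letters, 3 of the 10 genes, against 4.51% of the 27025 genes in the table and 3.97% of its 32851 windows. The 10 genes were chosen for a known tie to ATF4, so this share is not independent evidence of one. Among genes of the 9 lists around the response that are described further on, 16 of the 75 found in the promoter table held the letters (21.3%). Those lists hold 99 genes, and the genes not found by symbol were not searched. These 3 sites are printed because they are all the matches in the 10 genes. Levels in vWAT played no part in the search. Among the 9 tested genes *Trib3* varied most between mice and *Asns* least, and *Fgf21* was almost without counts. Capitals mark the matched letters, read 5′ to 3′ along the strand of the gene, and in *Trib3* and *Fgf21* they are the reverse complement of TGATGNAA.
Trib3: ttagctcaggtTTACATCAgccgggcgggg
Asns: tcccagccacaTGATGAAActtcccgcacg
Fgf21: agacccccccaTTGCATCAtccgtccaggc
The *Trib3* stretch is chr2:152344028-152344057 on the minus strand, with the matched letters at bases 15 to 22 counted from the RefSeq start site, which itself lies outside the GENCODE boundaries of the gene. The *Asns* stretch is chr6:7693214-7693243 on the minus strand, with the letters at bases -23 to -16, just before the RefSeq start site. The GENCODE boundaries of *Asns* run to 7693254, so by that annotation the whole stretch lies inside the gene. The *Fgf21* stretch is chr7:45615611-45615640 on the minus strand, with the letters at bases -139 to -132. A match is a run of letters and does not show binding.

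None of the 9 tested genes differed between KIKO and WT mice at an adjusted p under 0.05 in edgeR's quasi-likelihood test, where 0.677% of all 11080 tested genes passed. DESeq2 called none of the 6 to which it gave an adjusted p (4.56% of all genes with one), limma-voom none of 9 (0.361% of all) and limma-trend none of 9 (0.406% or 0.505% of all, with a pseudocount of 1 or 8). In edgeR the adjusted p ranged from 0.172 for *Trib3* to 0.869 for *Ddit3*. At an unadjusted p under 0.05, *Phgdh* was higher and *Trib3* lower, 2 of 9, against 16.2% of all tested genes. In none of the 9 did all KIKO mice lie on one side of all WT mice, against 8.45% of tested genes. The median log2 fold change of the 9 genes was -0.14, against -0.0071 for all tested genes. Without WT mouse 2 the median of the 9 was 0.0061. With all mice 7 of the 9 lay below 0, where 5647 of all 11080 tested genes lay below 0.

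**Figure D1:**
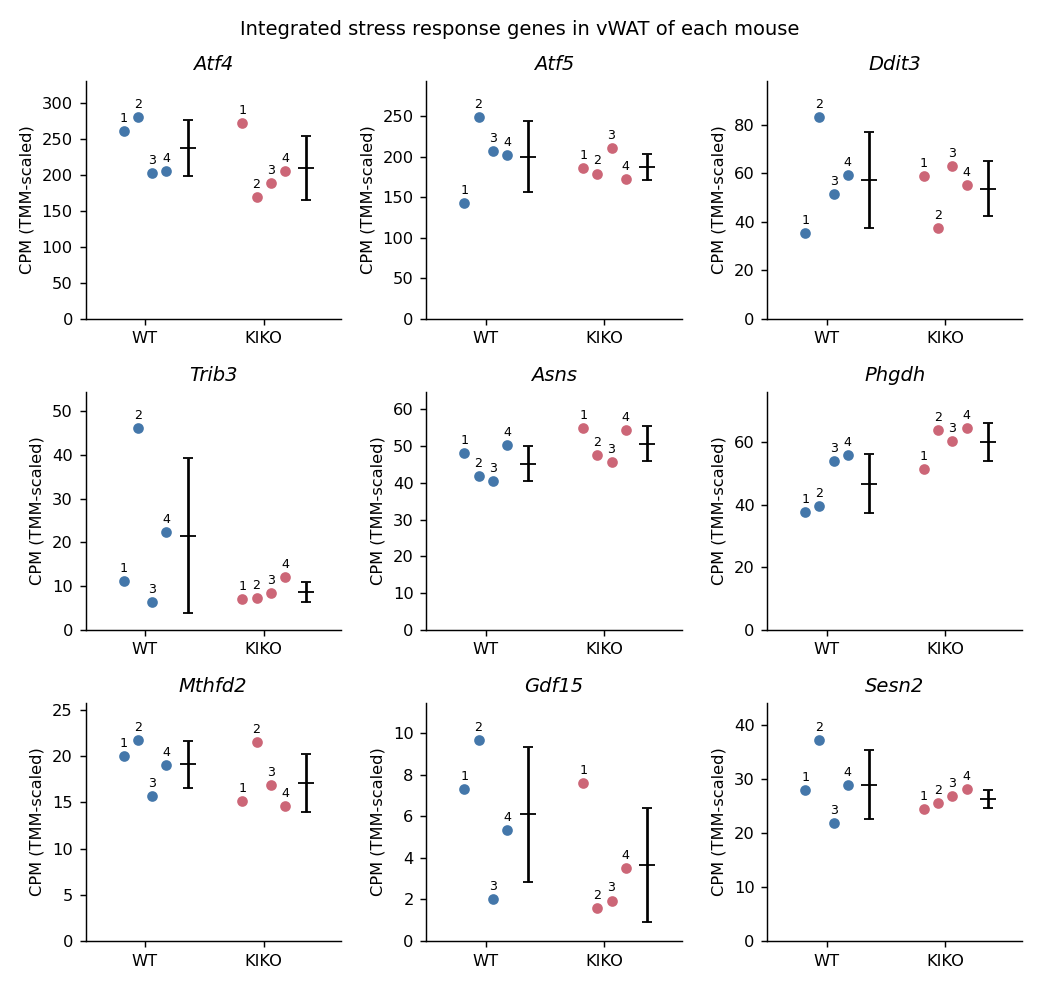
CPM (TMM-scaled) of the 9 tested genes in each of 4 WT (blue) and 4 KIKO (red) mice, with the mouse number above each point and the mean ± SD in black; each vertical axis starts at 0. The points of the 2 genotypes overlap in every gene, and WT mouse 2 is the highest of the 8 mice in 7 of the 9.

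*Atf4* (ENSMUSG00000042406, chromosome 15 from 80255184 to 80257541), the factor that gives the response its transcriptional arm, stood at 261, 281, 203 and 206 CPM in WT mice 1 to 4. In KIKO mice 1 to 4 its level was 273, 170, 190 and 206 CPM. KIKO mouse 1 lay between the 2 highest WT mice, and KIKO mouse 2 was the lowest of all. The mean was 238 ± 39.3 CPM in WT against 210 ± 44.7 CPM in KIKO mice (SD, n = 4 each). The log2 fold change was -0.18 (standard error, SE, 0.16, adjusted p = 0.615 in edgeR), with a 95% interval of -0.52 to 0.16. In fold terms the interval runs from 0.699 to 1.11.

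*Atf5* (ENSMUSG00000038539, chromosome 7 from 44812256 to 44816658) encodes a relative of ATF4 that is known for its part in the mitochondrial unfolded protein response. Its level was 143, 249, 208 and 202 CPM in WT mice 1 to 4. In KIKO mice 1 to 4 it was 186, 179, 211 and 173 CPM. All 4 KIKO mice lay inside the range of the WT mice. Between genotypes its log2 fold change was -0.10 (SE 0.15, adjusted p = 0.794 in edgeR), with a 95% interval of -0.42 to 0.22. *Atf5* overlaps *Nup62* and *Il4i1* on the opposite strand, which had 614 and 36 counts in all 8 mice against 4751 for *Atf5*, and whether the counting used strand is not given in the sources used here, although the paper's methods name a stranded kit.

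*Ddit3* (ENSMUSG00000025408, chromosome 10 from 127290774 to 127296288) encodes CHOP, a factor linked to cell death under prolonged stress. WT mice 1 to 4 had 35.2, 83.0, 51.2 and 59.3 CPM. KIKO mice 1 to 4 had 58.8, 37.2, 62.9 and 55.1 CPM. The lowest and the highest mouse were both WT, and the mean was 57.2 ± 19.9 CPM in WT against 53.5 ± 11.3 CPM in KIKO mice (SD, n = 4 each). On the log2 scale KIKO against WT came to -0.09 (SE 0.22, adjusted p = 0.869 in edgeR), with a 95% interval of -0.56 to 0.37. Without WT mouse 2 it was 0.14 and without KIKO mouse 2 it was 0.04. On the opposite strand *Ddit3* overlaps *Mars*, a tRNA synthetase gene with 36.1 to 50.2 CPM in WT against 38.6 to 54.5 CPM in KIKO mice.

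*Trib3* (ENSMUSG00000032715, chromosome 2 from 152337422 to 152344032) encodes a pseudokinase that ATF4 and CHOP induce and that is known to dampen both ATF4 and insulin signalling through AKT. It had 35, 152, 19 and 67 counts in WT mice 1 to 4, or 11.1, 46.0, 6.36 and 22.4 CPM. KIKO mice 1 to 4 had 21, 18, 26 and 41 counts, or 6.93, 7.19, 8.42 and 12.0 CPM. The KIKO mice were close together, whereas the WT mice spread over more than the whole KIKO range, with WT mouse 3 below every KIKO mouse and WT mouse 2 far above. The mean was 21.5 ± 17.7 CPM in WT against 8.64 ± 2.34 CPM in KIKO mice (SD, n = 4 each). The log2 fold change of -1.30 was the largest among the 9 genes (SE 0.46, adjusted p = 0.172 in edgeR), with a 95% interval of -2.27 to -0.34.

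The difference in *Trib3* depended on single WT mice. Without WT mouse 2 the log2 fold change was -0.60 (adjusted p = 0.538 in edgeR). Without WT mouse 3 it was -1.60 and passed (adjusted p = 0.0240 in edgeR), where 5.81% of tested genes passed. It also passed with no filter on low counts (-1.30, adjusted p = 0.00799 in edgeR), where 2.11% of genes passed. Over these and the other alternatives that gave one, the adjusted p of *Trib3* ranged from 0.00799 to 0.538. A 2-sided exact permutation test on log2(CPM + 1) used the 70 assignments of 4 against 4 mice and was run on all 10 genes. For *Trib3* it gave an unadjusted p = 0.257, where 0.0286 is the smallest p the design allows. Adjusted over the 10 genes, the permutation p of *Trib3* was 0.571.

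**Figure D2:**
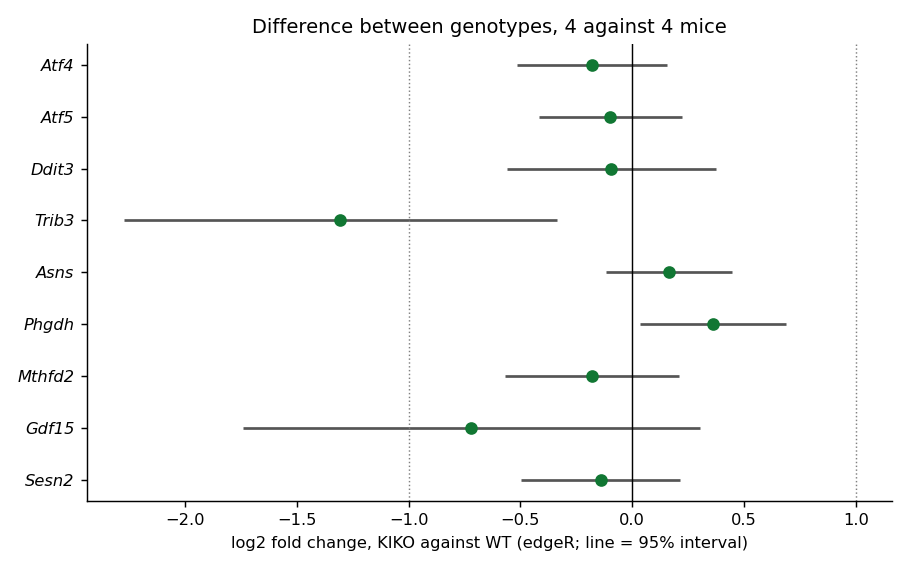
Log2 fold change of KIKO against WT mice (horizontal axis) for the 9 tested genes (green points); lines are 95% intervals in edgeR, and dotted lines mark a 2-fold difference. The interval of *Trib3* lies below 0 and that of *Phgdh* above 0 before adjustment, and neither gene passed after it.

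Of the 3 enzyme genes, *Asns* (ENSMUSG00000029752, chromosome 6 from 7675169 to 7693254) encodes asparagine synthetase, a standard readout of the amino acid arm of the response. Its level was 48.2, 41.8, 40.5 and 50.2 CPM in WT mice 1 to 4. In KIKO mice 1 to 4 it was 54.8, 47.6, 45.7 and 54.5 CPM. The 2 highest mice were KIKO and the 2 lowest WT, with the other 4 between them. In KIKO against WT mice the log2 fold change was 0.17 (SE 0.13, adjusted p = 0.575 in edgeR), with a 95% interval of -0.12 to 0.45. This was the narrowest interval of the 9 genes, and in fold terms it runs from 0.923 to 1.36.

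*Phgdh* (ENSMUSG00000053398, chromosome 3 from 98313170 to 98339990) encodes the first enzyme of serine synthesis from glucose. WT mice 1 to 4 had 37.7, 39.7, 53.9 and 55.9 CPM. KIKO mice 1 to 4 had 51.5, 63.9, 60.3 and 64.4 CPM. KIKO mice 2, 3 and 4 were above every WT mouse, and KIKO mouse 1 lay below WT mice 3 and 4. The mean was 46.8 ± 9.43 CPM in WT against 60.0 ± 5.99 CPM in KIKO mice (SD, n = 4 each). KIKO against WT mice gave a log2 fold change of 0.36 (SE 0.15, adjusted p = 0.257 in edgeR), with a 95% interval of 0.03 to 0.69. The exact permutation test gave an unadjusted p = 0.0857, and 0.571 when adjusted over the 10 genes. The log2 fold change stayed above 0 without any 1 mouse, from 0.27 to 0.46, and its adjusted p in edgeR did not fall under 0.114.

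*Mthfd2* (ENSMUSG00000005667, chromosome 6 from 83305691 to 83325908) encodes a mitochondrial enzyme of one-carbon metabolism that healthy adult tissues express little. Its level was 19.97, 21.8, 15.7 and 19.1 CPM in WT mice 1 to 4. In KIKO mice 1 to 4 it was 15.2, 21.6, 16.9 and 14.7 CPM. KIKO mouse 2 was close to the highest WT mouse, KIKO mice 1 and 4 lay below the lowest WT mouse, and KIKO mouse 3 lay between. Between genotypes its log2 fold change was -0.18 (SE 0.18, adjusted p = 0.671 in edgeR), with a 95% interval of -0.57 to 0.21. *Phgdh* and *Mthfd2*, which act in the same route from glucose to one-carbon units, thus had fold changes of opposite sign, neither of which passed.

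The secreted factors had few counts. *Fgf21* (ENSMUSG00000030827, chromosome 7 from 45613886 to 45615490), a hormone of liver and fat that acts on glucose and lipid metabolism, had 1 count in KIKO mouse 1 and none in the other 7 mice. In a single library a count of 0 allows up to about 3 counts, which is 0.879 to 1.20 CPM depending on the library. That limit holds for 1 library and is not a limit for the difference between genotypes. The limit covers counting error only. *Gdf15* (ENSMUSG00000038508, chromosome 8 from 70629393 to 70632456), a stress hormone that lowers food intake through the brainstem, had 23, 32, 6 and 16 counts in WT mice 1 to 4. It had 23, 4, 6 and 12 counts in KIKO mice 1 to 4. High and low mice occurred in both genotypes, and the mean was 6.09 ± 3.25 CPM in WT against 3.66 ± 2.75 CPM in KIKO mice (SD, n = 4 each). The log2 fold change of *Gdf15* was -0.72 (SE 0.48, adjusted p = 0.489 in edgeR), with a 95% interval of -1.74 to 0.30. It was -0.40 without WT mouse 2 and -1.33 without KIKO mouse 1, with an adjusted p of 0.812 and 0.276 in edgeR. At such counts the counting error alone is wide, and the 4 counts of KIKO mouse 2 have an exact 95% Poisson interval of 1.09 to 10.2 counts, which covers counting error only.

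*Sesn2* (ENSMUSG00000028893, chromosome 4 from 132492032 to 132510501) encodes sestrin 2, a leucine sensor that restrains mTORC1. WT mice 1 to 4 had 27.9, 37.3, 21.8 and 28.8 CPM. KIKO mice 1 to 4 had 24.4, 25.6, 26.9 and 28.1 CPM. All 4 KIKO mice lay inside the WT range, with an SD of 1.60 CPM against 6.37 CPM in WT mice. On the log2 scale KIKO against WT came to -0.14 (SE 0.17, adjusted p = 0.720 in edgeR) and 0.0061 without WT mouse 2. *Gm12981*, which overlaps *Sesn2* on the same strand, had 8 counts in all.

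Single mice stood out across the genes. WT mouse 2 was the highest of the 8 mice in 7 of the 9 genes (*Atf4*, *Atf5*, *Ddit3*, *Trib3*, *Gdf15*, *Mthfd2* and *Sesn2*), while 12.1% of all tested genes were highest in that mouse. The exceptions were *Asns* and *Phgdh*. Against the mean of the other 3 WT mice it was 3.46-fold higher in *Trib3*, 1.98-fold in *Gdf15*, 1.71-fold in *Ddit3*, 1.42-fold in *Sesn2*, 1.35-fold in *Atf5*, 1.26-fold in *Atf4* and 1.19-fold in *Mthfd2*. These ratios describe a single mouse picked after its values were seen and have no test. WT mice 1 and 3 were each the lowest of the 8 in 3 of the 9 genes. The ratio of the highest to the lowest mouse was 7.24 in *Trib3* and 6.06 in *Gdf15*, 2.36 in *Ddit3*, and 1.35 to 1.74 in the other 6.

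**Figure D3:**
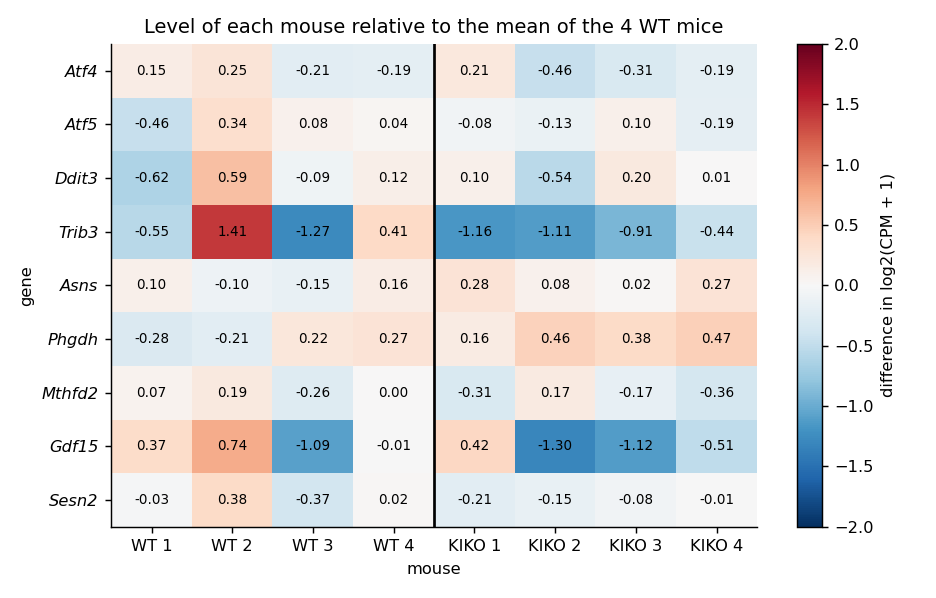
Difference of each mouse (columns) from the mean of the 4 WT mice in log2(CPM + 1), for the 9 tested genes (rows); red is above and blue below the WT mean, and the black line parts the genotypes. WT mouse 2 is above the WT mean in 7 genes and below it in *Asns* and *Phgdh*, and *Trib3* is below the WT mean in all 4 KIKO mice and in WT mice 1 and 3.

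By library, WT mouse 2 lay within the range of the other mice in total counts (3105507) and in the mitochondrially encoded share of its counts (9.15%, against 6.91% to 10.7% over all mice), and its summed adipocyte markers, at 18860 CPM, were the lowest of the 8. It was also the only mouse with any count of an epididymal marker (*Adam7*, 4 counts). Macrophage markers did not overlap between the genotypes, with a summed level over 8 genes of 952 to 1175 CPM in WT against 1342 to 1680 CPM in KIKO mice, and none of the 8 genes was at 0. All 8 had a log2 fold change above 0, and *Lyz2*, which made up much of the sum, was the one that passed (0.95, adjusted p = 0.0326 in edgeR). Progenitor and fibroblast markers (7 genes, none at 0) summed to 2981 to 3380 CPM in WT against 3604 to 4207 CPM in KIKO mice, but 5 of the 7 lay below 0, with a median of -0.02, and the sum was mostly *Dcn*, with a mean of 2091 CPM in WT against 2776 CPM in KIKO mice. Endothelial markers (8 genes, none at 0) summed to 569 to 720 CPM in WT against 361 to 577 CPM in KIKO mice. All 8 lay below 0, and *Robo4* was the one that passed (-0.79, adjusted p = 0.0326 in edgeR). Mesothelial markers (6 genes, none at 0) summed to 230 to 337 CPM in WT against 242 to 479 CPM in KIKO mice. Of the 5 tested 4 lay above 0, and *Krt19* was the one that passed (1.15, adjusted p = 0.0326 in edgeR). Lymphocyte markers (7 genes) summed to 18.4 to 24.4 CPM in WT against 13.0 to 42.4 CPM in KIKO mice, and none of the 4 tested passed. The part of these cell types in the values of the stress response genes was not tested.

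**Figure D4:**
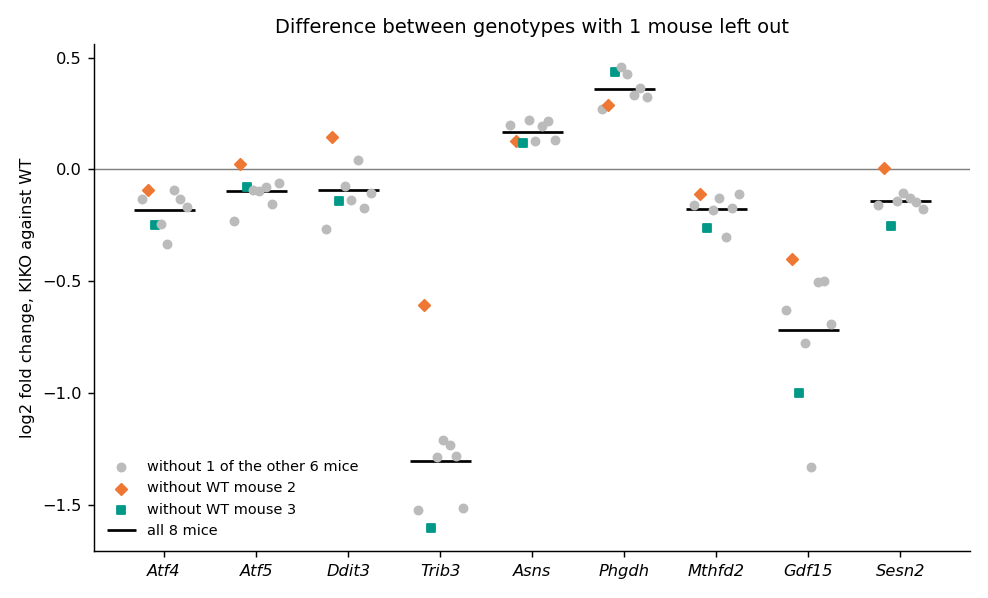
Log2 fold change of KIKO against WT mice (vertical axis) for each of the 9 genes with all 8 mice (black bars) and with 1 mouse left out (points). Without WT mouse 2 (orange) *Trib3* moves from -1.30 to -0.60 and *Atf5*, *Ddit3* and *Sesn2* lie at or above 0, and without WT mouse 3 (green) *Trib3* is at -1.60.

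Genes around the members were counted the same way. Of 99 further genes in 9 lists around the response, 91 were tested, and none passed at an adjusted p under 0.05 in edgeR. At an unadjusted p under 0.05 there were 12 of the 91, 7 higher and 5 lower, against 7.13% and 9.06% of all tested genes. The genotypes did not overlap in 4 of the 91, 3 higher and 1 lower, against 3.89% and 4.56% of tested genes. By list these 12 were 4 endoplasmic reticulum stress genes (all higher), 2 upstream genes (1 higher, 1 lower), 1 higher gene each among other regulators and mitochondrial chaperones, 1 lower gene each among synthesis enzymes, transporters, tRNA synthetases and receptors, and 0 among family relatives. *Pdia4* passed without WT mouse 1, where 0.427% of tested genes passed. DESeq2 called 1 of the 60 to which it gave an adjusted p, *Pdia4*, where 4.56% of all genes with one passed. Limma called none, where 0.361% to 0.505% of all tested genes passed.

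Upstream of ATF4, all 17 genes for eIF2, its kinases, its phosphatase subunits, its exchange factor eIF2B and mitochondrial relays were tested, with a median log2 fold change of 0.03. *Eif2s3x*, which encodes the gamma subunit of eIF2, had 8.48 to 13.7 CPM in WT against 15.2 to 17.9 CPM in KIKO mice, with no overlap. Its log2 fold change was 0.51 (SE 0.19, adjusted p = 0.212 in edgeR). *Gcn1l1*, an activator of the amino acid sensing kinase GCN2, had -0.45 (SE 0.19, adjusted p = 0.248 in edgeR), and *Eif2b2*, a subunit of eIF2B, had 0.31 (SE 0.15, adjusted p = 0.313 in edgeR). The kinase genes *Eif2ak1*, *Eif2ak2*, *Eif2ak3* and *Eif2ak4*, picked after seeing their values, stood at log2 fold changes of -0.02, 0.03, 0.01 and -0.56.

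Among 13 other factors and regulators of the response the median was -0.09, with 5 above and 8 below 0. *Nupr1*, a stress-induced nuclear protein, had 122 to 183 CPM in WT against 162 to 269 CPM in KIKO mice, with a log2 change of 0.39 (SE 0.16, adjusted p = 0.257 in edgeR). *Ddit4*, an inhibitor of mTORC1, had -0.64 (SE 0.31), and *Vldlr*, a lipoprotein receptor, had -0.29 (SE 0.14). *Atf3* and *Chac1*, further classical targets that were named after their values were seen, had 2.05 to 9.71 CPM and 3.63 to 7.13 CPM over all 8 mice. Their log2 fold changes were -0.73 (SE 0.38, adjusted p = 0.37 in edgeR) and -0.15 (SE 0.28, adjusted p = 0.83 in edgeR).

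Of 14 genes of serine, one-carbon and amino acid synthesis 11 were tested, with a median log2 fold change of -0.08. *Cbs*, which makes cystathionine from homocysteine and serine, had 9.99 to 16.4 CPM in WT against 6.48 to 10.4 CPM in KIKO mice, and its log2 fold change was -0.78 (SE 0.24, adjusted p = 0.130 in edgeR). *Psat1*, the enzyme after PHGDH, had 0.34 (SE 0.23) and *Gpt2*, a mitochondrial alanine transaminase, had -0.36 (SE 0.20). All 6 tested amino acid transporters, of 9, lay below 0, with a median of -0.12. The largest was *Slc38a2*, a glutamine and alanine carrier, with -0.46 (SE 0.20, adjusted p = 0.259 in edgeR), followed by *Slc6a9*, a glycine carrier, with -0.19, whereas the glutamine carrier *Slc1a5* had -0.09 at 723 to 1180 CPM over all mice. *Slc7a11*, the cystine carrier, named after its values were seen, had 0 to 0.65 CPM and was not tested.

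The 12 cytosolic tRNA synthetase genes, which ATF4 induces as a group in cultured cells, had a median log2 fold change of 0.10, with 9 above and 3 below 0. *Cars*, the cysteinyl-tRNA synthetase, had 22.1 to 27.6 CPM in WT against 16.8 to 19.1 CPM in KIKO mice, with no overlap. Its log2 fold change was -0.47 (SE 0.15, adjusted p = 0.156 in edgeR). *Mars* and *Gars* both had 0.20 (SE 0.15 and 0.16). Of the receptors for the secreted factors, *Fgfr1*, an FGF21 receptor, had 137 ± 34.4 CPM in WT against 104 ± 10.5 CPM in KIKO mice (SD, n = 4 each), with a log2 change of -0.40 (SE 0.16, adjusted p = 0.233 in edgeR). *Klb*, which encodes the co-receptor beta-klotho, had 0.20 (SE 0.24). *Gfral*, the GDF15 receptor of the brainstem, had no count in any mouse, and its partner *Ret* had -0.47 (SE 0.28). Among family relatives *Sesn1* had -0.41 (SE 0.25), and the *Trib3* paralogs *Trib1* and *Trib2* had 0.18 (SE 0.14) and -0.19 (SE 0.17).

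**Figure D5:**
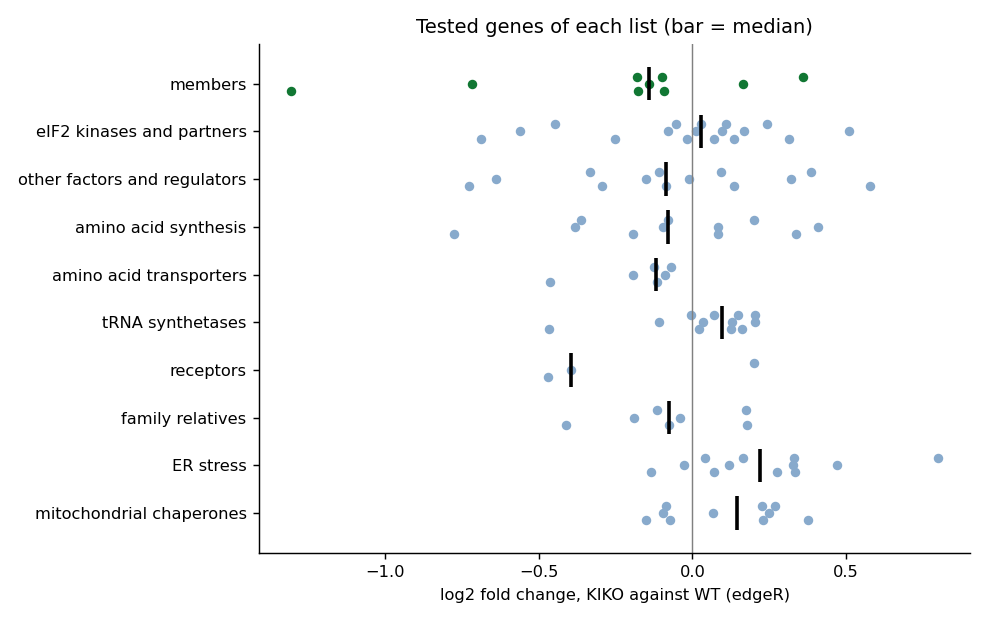
Log2 fold change of KIKO against WT mice (horizontal axis) for every tested gene of the stress response members (green) and of 9 lists around them (blue); black bars are medians. The medians lie between -0.40 for the 3 tested receptors and 0.22 for the endoplasmic reticulum stress genes.

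Endoplasmic reticulum and mitochondrial stress genes were set beside the response. Of 12 genes of endoplasmic reticulum stress, which share the kinase PERK with the integrated stress response but are mainly driven by ATF6 and XBP1, 10 lay above 0, with a median log2 fold change of 0.22, where 5433 of all 11080 tested genes lay above 0. At an unadjusted p under 0.05, 4 of the 12 were higher, against 7.13% of all tested genes, and none lower. The list was chosen with earlier results of these data known, so these counts are description only. *Pdia4*, a disulfide isomerase of the endoplasmic reticulum, had 50.8 ± 14.2 CPM in WT against 88.8 ± 22.4 CPM in KIKO mice (SD, n = 4 each). Its log2 fold change was 0.80 (SE 0.20, adjusted p = 0.0782 in edgeR). *Hspa5*, the chaperone BiP, had 0.33 (SE 0.13, adjusted p = 0.216 in edgeR), and *Dnajc3* had 0.28 (SE 0.12). Of 10 mitochondrial chaperone and protease genes 6 lay above 0, with a median of 0.15. *Hspe1*, the co-chaperone of HSP60, had 76.4 to 102 CPM in WT against 116 to 124 CPM in KIKO mice, with no overlap, and a log2 fold change of 0.38 (SE 0.12, adjusted p = 0.147 in edgeR). *Hspd1*, HSP60 itself, had 0.23 (SE 0.13) and the protease subunit *Clpp* had 0.25 (SE 0.14). Whether these lists differ from the 9 stress response genes was not tested.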

How the data were processed

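vWAT RNA of 4 WT and 4 KIKO mice was sequenced by the authors. After trimming (Trimmomatic), reads were placed on GRCm38 by HISAT2 and quantified by StringTie, per the paper's methods; the annotation release is not given in the sources used here. The authors deposited raw counts per Ensembl gene. The second deposited table holds log2 values, equal to log2(scaled count + 1) with a single scaling factor for each library. It served only as an alternative. The methods name a stranded TruSeq kit, the labels a digital mRNA-seq service, so levels are not compared between genes per length.

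The main test was edgeR 4.0.16 under R 4.3.3 (TMM, filterByExpr, quasi-likelihood test, genotype as the only term), with Benjamini-Hochberg adjustment over 11080 genes and a threshold of 0.05. Standard errors and 95% intervals are those implied by the test statistic. Total counts were 2602189 to 3478539 per library. The fit was first tested on simulated data. Alternatives used DESeq2 1.42.0, limma 3.58.1, other scalings and filters, a length and GC offset, a replicate block and 7 of 8 mice. The 10 genes and the lists were chosen with earlier results of these data known. Named genes are the 10 members, the receptors, any gene of a list that passed and the 3 genes of each list with the smallest p; other names are marked, apart from genes that overlap a member and the markers beside a result. Symbols and positions are from GENCODE M21, in which 30934 of 31053 genes were found, and sequences from RefSeq for GRCm38.p6. Duplicate libraries were checked for and none were found within a genotype. One item is not reported here. Nothing in the labels pairs mice by number.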

Additional observations from a re-analysis of the deposited data

Results flagged for a closer look

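*Fgf21* in KIKO mouse 1, at 0.330 CPM, was set apart from the other 3 KIKO mice, which were at 0, by comparing the gap to the nearest mouse with the range of the group. The value is a single count, and with 3 mice at 0 the gap equals the range whatever the count, so the comparison carries no information here. Of the 19 groups of 4 mice with a range, over the 10 genes, it was the only one set apart.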

How the results depend on the processing

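In 162 fits of the 9 tested genes under 18 alternatives, 159 gave an adjusted p. Of these 153 kept the direction and the side of the threshold, 2 passed where they had not (both *Trib3*: -1.30 with no filter on low counts, and without WT mouse 3), and 4 changed sign, all with 1 mouse left out. Over the fits without 1 mouse, *Trib3* ranged from -1.60 to -0.60, *Atf5* from -0.23 to 0.024, *Ddit3* from -0.27 to 0.14 and *Sesn2* from -0.25 to 0.0061. The number of stress response genes that passed was 1 with no filter on low counts (*Trib3*) and 0 to 1 without 1 mouse. The number of genes in the 9 lists that passed was 1 with no filter and 1 in DESeq2 (*Pdia4* in both), and 0 to 1 without 1 mouse (*Pdia4* without WT mouse 1, *Slc7a5*, named after its value was seen, without WT mouse 3). Over all genes, 382 of 18092 passed with no filter, 281 in DESeq2, 40 in limma-voom, 45 in limma-trend on the deposited log2 values (pseudocount 1), 30 with the length and GC offset, and 0 to 654 without 1 mouse (654 without WT mouse 3, and 0 when WT mouse 2, WT mouse 4 or KIKO mouse 4 was left out, with 1344, 1533 and 1328 genes under an unadjusted p of 0.05 in edgeR, the one tool used there). The cause was not tested. With the replicate number as a block 0 genes passed (1427 at an unadjusted p under 0.05 in edgeR), but mice of the same number share only a number: the correlations of their deviations from the genotype mean were -0.152 to 0.028, and 1 of 8 libraries correlated best with its own number. The block changed no call of the 9 genes. The other 3 fits were those of DESeq2 for *Trib3*, *Gdf15* and *Mthfd2*, which kept their direction. The median of the 9 genes ranged from -0.25 to 0.0061 without 1 mouse and from -0.22 to -0.09 under the other 10. Depth limits *Fgf21* and *Gdf15* most.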
